A study of Homo sapiens with 8 samples.

Results

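The genes described here build the 2 routes by which a cell shows peptides on its surface: B2M, TAP1, TAP2, TAPBP, PSMB8 and PSMB9 of the class I route, and HLA-DRA, HLA-DMA, CD74 and CIITA of the class II route. They were chosen by name, and every probe set that the probe table of the array assigns to 1 of these symbols alone was taken, whatever its signal: 17 probe sets of 10 genes, out of 22215 probe sets and 11963 genes tested. With hairpins against PGC1a, TAP1 and 1 of the 2 probe sets of HLA-DRA fell, by 1.27-fold and 1.17-fold, and 0 of the 17 rose. Over all probe sets 8.46% fell and 9.49% rose. Neither fall passed with the 2 arrays of each hairpin averaged, or with a measure of RNA quality as a covariate. With each hairpin taken singly, TAP1 fell with both, and HLA-DRA fell with hairpin 66 only. TAPBP rose with hairpin 65 and PSMB8 fell with hairpin 66, but neither passed in a fit of 2 groups, that hairpin and the controls. No member probe set was shown to differ between the hairpins. B2M, TAP2, HLA-DMA, CD74 and CIITA did not pass the test in any comparison, and PSMB9 passed only in some alternative analyses.

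In the class I route the proteasome cuts cytosolic proteins, the TAP transporter carries the peptides into the endoplasmic reticulum, and a loading complex held together by tapasin places them on heavy chains paired with beta-2 microglobulin. In the class II route, chains bind the invariant chain in the endoplasmic reticulum, cathepsins trim it in endosomes, and HLA-DM exchanges the remaining fragment for a peptide. Most of these genes respond to interferon gamma, class II through the coactivator CIITA, and many melanomas carry class II on their surface although melanocytes at rest do not.

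The RNA came from A375P, an established human melanoma line, read on 8 single-colour Affymetrix arrays. Lentivirus made stable lines, each carrying 1 of 4 short hairpin RNAs, and each hairpin was read on 2 arrays. The control arm held shGFP and shScr (named shRNA-control in the sample titles), and the other arm held PGC1a shRNA 65 and PGC1a shRNA 66, called hairpins 65 and 66 below. All lines went through 48 h of puromycin and gave RNA 48 h after it, so every group shares the virus and the drug, and a stable line without a hairpin was not analysed here. PPARGC1A, which encodes the coactivator PGC1a, had signals of 559.7, 543, 570.2 and 551 in the control arrays and of 126, 144, 114 and 115 in the PGC1a hairpin arrays, 4.48-fold lower by the means of log2 values (limma adjusted p = 6.79e-07), so the labels and the target match. Nothing in the labels says that the arrays of a hairpin are separate cultures, so all p-values here measure only the spread between these arrays, which may be technical. Values are signals on a linear scale, changes are differences of mean log2 signal, and "called", "rose" and "fell" mean an adjusted p of limma under 0.05 over all 22215 probe sets.

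The arrays were comparable in level, with median signals between 137 and 142. They differed in 1 measure of RNA quality. The 3′ minus 5′ log2 difference of the ACTB control probe sets was 2.19 ± 0.18 (SD, n = 4) in the control arm and 2.53 ± 0.11 (SD, n = 4) in the PGC1a hairpin arm, with ranges of 1.97 to 2.34 and 2.41 to 2.65, while that of GAPDH was 0.17 and 0.18. Melanocytic genes were bright, with MITF at 7419.7 and SOX10 at 3652 in the control arm, though the brighter MLANA probe set was at 37.5. Of 15 leukocyte marker genes 12 were measured, and their summed signal ran from 399 to 418 in the control arm and from 399 to 429 in the PGC1a hairpin arm. The 3 probe sets of PTPRC, the leukocyte antigen CD45, averaged 15.5 to 20.6 in the control arm, and 0 of 16 leukocyte probe sets were called. The summed signal of 7 melanocytic genes was lower in the PGC1a hairpin arm, at 14730.3 to 15958 against 18727 to 20235. Of the 9 probe sets of these genes 4 were called lower, beside 8.46% of all probe sets. Between the control hairpins, 2 of the 9 were called, both higher in shGFP than in shScr. The part of this lower signal in the results below was not tested. In RNA of a whole culture, fewer cells with a transcript and less of it per cell cannot be told apart.

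The stretches of 250 bases upstream of the starts of TAP1, PSMB9 and B2M show how these genes are laid out, since TAP1 and PSMB9 lie head to head on chromosome 6 and B2M lies apart on chromosome 15. They come from RefSeq (build GRCh38.p14), whose promoter table holds 8 of the 10 genes, with no entry matched for HLA-DRA or CIITA. Capitals mark the core of interferon regulatory factor elements (GAAANNGAA on either strand) and kappa-B sites. TAP1 is read on the minus strand at chr6:32853705-32853954, PSMB9 on the plus strand at chr6:32853942-32854191, and B2M on the plus strand at chr15:44711267-44711516.
TAP1: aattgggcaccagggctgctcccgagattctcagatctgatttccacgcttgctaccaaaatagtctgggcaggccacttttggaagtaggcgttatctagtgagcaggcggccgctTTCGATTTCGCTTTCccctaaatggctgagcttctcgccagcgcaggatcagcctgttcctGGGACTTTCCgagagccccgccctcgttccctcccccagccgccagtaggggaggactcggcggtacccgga
PSMB9: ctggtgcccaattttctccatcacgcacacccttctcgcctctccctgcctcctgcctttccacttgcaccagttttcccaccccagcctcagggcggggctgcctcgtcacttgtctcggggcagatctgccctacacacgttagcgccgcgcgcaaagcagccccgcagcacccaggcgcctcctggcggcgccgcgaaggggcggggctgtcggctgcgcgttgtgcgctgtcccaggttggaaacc
B2M: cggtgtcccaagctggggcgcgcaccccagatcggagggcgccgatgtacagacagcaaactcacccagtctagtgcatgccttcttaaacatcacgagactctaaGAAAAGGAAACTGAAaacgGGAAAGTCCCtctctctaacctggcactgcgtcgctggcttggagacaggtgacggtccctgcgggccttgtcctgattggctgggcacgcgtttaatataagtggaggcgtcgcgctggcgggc
The TAP1 and PSMB9 stretches share 13 bases at their far ends, and their starts are 487 bases apart. In TAP1, 2 overlapping copies of the interferon regulatory factor core end 119 bases before the start and a kappa-B site ends 63 bases before it. B2M holds the same pair of motifs, again as 2 overlapping cores and 1 kappa-B site. The PSMB9 stretch has neither. Of all 35116 windows of this length, 6.88% hold the core and 9.96% a kappa-B site. TAPBP, TAP2 and CD74 hold the core as well, while TNAAGGTCA, an element of oestrogen-related receptors, is in 0.854% of windows and in none of the 10 windows of the members. These are matches of letters only.

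The first question was whether the 10 genes differ between PGC1a hairpins and control hairpins. Limma called 2 of the 17 probe sets, 0 higher and 2 lower. Over all probe sets 18% were called, 9.49% higher and 8.46% lower, so the share among these genes is close to that of the array. Changes were negative in 12 probe sets and positive in 5, with a median log2 change of -0.04 beside -0.0047 over all probe sets. The 4 PGC1a hairpin arrays all lay below the 4 control arrays in 4 of the 17 probe sets (TAP1, TAP2 204769_s_at and both of HLA-DRA) and all above them in 1 (TAPBP 208829_at), where the array as a whole had 11.7% below and 12.2% above. The other 12 overlapped. At an unadjusted p of 0.05, 6 of the 17 would have passed, where 29.7% of all probe sets would have.

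TAP1 and TAP2 encode the chains that pair into the peptide transporter. TAP1 (Entrez 6890, probe set 202307_s_at) had signals of 715 and 721 with shGFP, 739.8 and 719 with shScr, 572 and 612 with hairpin 65, and 519.8 and 582 with hairpin 66. The control arrays lay within a narrow band, and the highest PGC1a hairpin array lay well below it. Its mean was 724 ± 10.9 (SD, n = 4) in the control arm and 572 ± 38.5 (SD, n = 4) in the other, a log2 change of -0.34 (SE 0.06, 95% interval -0.48 to -0.21), or 1.27-fold lower (limma adjusted p = 0.00323). By hairpin the order of the mean signals was shScr, shGFP, hairpin 65 and hairpin 66. Neither the controls (log2 difference -0.02, adjusted p = 0.915) nor hairpins 65 and 66 (0.11, adjusted p = 0.810) differed past the threshold. The ACTB difference moved with the same arms. With it as a covariate the TAP1 log2 change was -0.33 and the call was lost (limma adjusted p = 0.158), in a fit that called 678 probe sets in place of 3989. The call was also lost with the 2 arrays of each hairpin averaged (adjusted p = 0.0600).

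TAP2 (Entrez 6891) has 3 probe sets, of which 204769_s_at had signals of 278 and 281 with shGFP, 269 and 329 with shScr, 254 and 256 with hairpin 65, and 220.5 and 264 with hairpin 66. The arms do not overlap, but the spread among the shScr arrays is wider than the gap between the arm means. The log2 change was -0.22 (SE 0.08) and did not pass (limma adjusted p = 0.103). The other TAP2 probe sets were dim and overlapped between the arms. 204770_at ranged from 74.1 to 86.8 over the 8 arrays (log2 change -0.01) and 208428_at from 16.7 to 22.6 (log2 change 0.04).

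TAPBP encodes tapasin, which bridges the transporter and the class I heavy chain. Its probe set 208829_at (Entrez 6892) had signals of 555 and 521 with shGFP, 519.7 and 507 with shScr, 605 and 637 with hairpin 65, and 569 and 578 with hairpin 66. Every PGC1a hairpin array was above every control array. The log2 change of 0.18 (SE 0.06, 95% interval 0.06 to 0.31) did not pass in the main comparison (limma adjusted p = 0.0521), and it passed in 5 of 23 alternative analyses, among them the test of 1 probe set per gene (adjusted p = 0.0399). The second TAPBP probe set, 210294_at, was dim, at 80.0 to 83.2 in the control arrays and 69.8 to 114 in the PGC1a hairpin arrays, with a log2 change of 0.03.

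B2M encodes beta-2 microglobulin, the light chain of every class I molecule. Its probe set 201891_s_at (Entrez 567) gave 15469 and 15150.2 with shGFP, 14975 and 14864 with shScr, 14013 and 15282 with hairpin 65, and 16099 and 13593 with hairpin 66. The control arrays sat inside the range of the PGC1a hairpin arrays. The log2 change was -0.04 with a 95% interval of -0.18 to 0.10. The second B2M probe set, 216231_s_at, ranged from 17456 to 18498 over the 8 arrays, with a log2 change of -0.02 and an interval of -0.12 to 0.09.

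**Figure D1:**
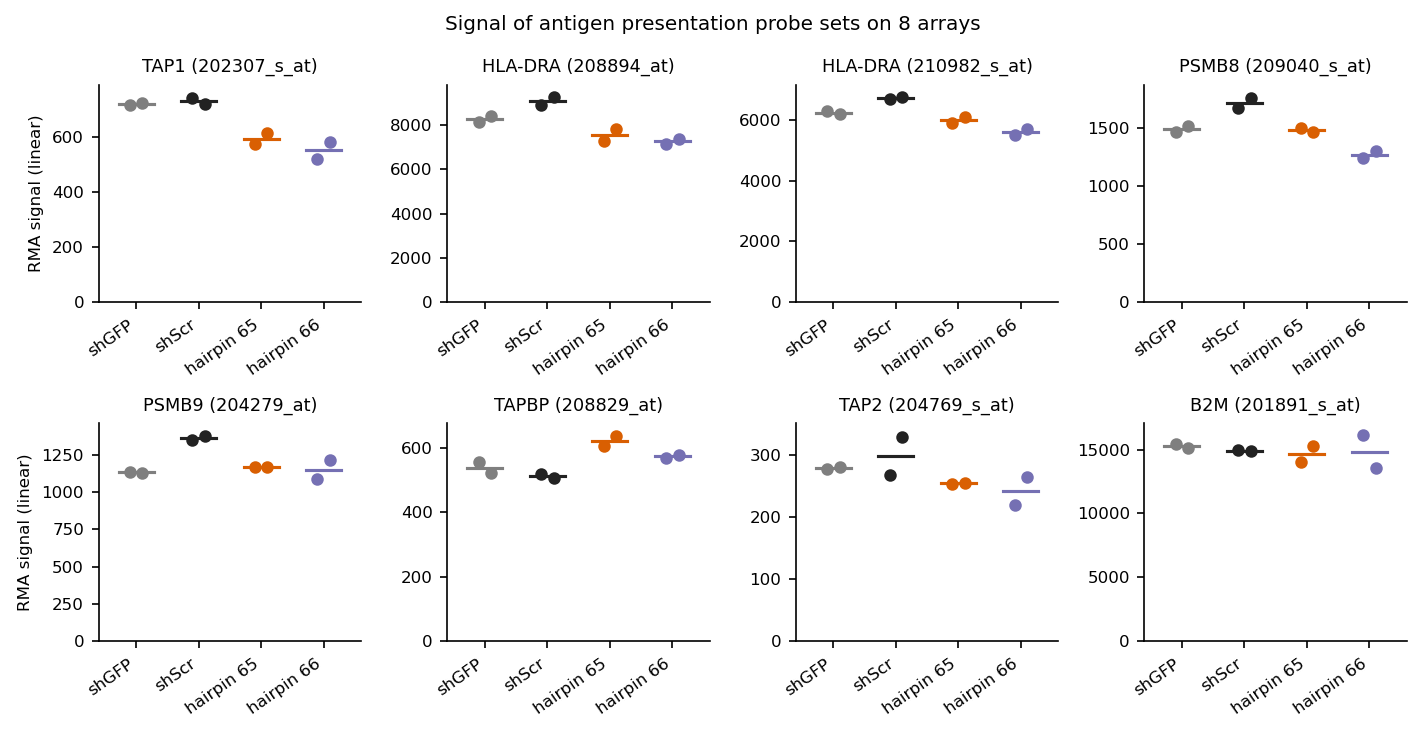
RMA signal on a linear axis from 0 (vertical) of 8 member probe sets on each of the 8 arrays, by hairpin (horizontal); points are arrays and bars the mean of the 2 arrays of a hairpin. TAP1 is at 715 to 739.8 in the control arrays and 519.8 to 612 with hairpins 65 and 66, while PSMB8 and PSMB9 also separate shGFP from shScr.

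PSMB8 and PSMB9 encode catalytic subunits that replace the standard ones in the immunoproteasome, the form that favours peptides suited to class I. PSMB8 (Entrez 5696, probe set 209040_s_at) had signals of 1466 and 1522 with shGFP, 1672 and 1760.1 with shScr, 1499.5 and 1464 with hairpin 65, and 1241 and 1303 with hairpin 66. Hairpin 66 was lowest, shScr highest, and hairpin 65 lay with shGFP. The arms therefore overlap, and the change of -0.22 (SE 0.08) did not pass (limma adjusted p = 0.0979). PSMB9 (Entrez 5698, probe set 204279_at) had signals of 1136 and 1128 with shGFP, 1350.4 and 1375 with shScr, 1169 and 1165 with hairpin 65, and 1088 and 1212 with hairpin 66. Here shScr alone stood above the rest, and the change of -0.10 (SE 0.08) did not pass (adjusted p = 0.451). Against shScr alone PSMB9 was lower by a log2 change of -0.24 (adjusted p = 0.0496), and against shGFP alone the change was 0.03 (adjusted p = 0.796).

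HLA-DRA encodes the alpha chain of HLA-DR, the main class II molecule. Probe set 208894_at (Entrez 3122) had signals of 8165 and 8405 with shGFP, 8892 and 9263 with shScr, 7271 and 7818 with hairpin 65, and 7172 and 7381 with hairpin 66. All PGC1a hairpin arrays were below all control arrays, with shScr above shGFP. The mean was 8681 ± 492 (SD, n = 4) in the control arm and 7411 ± 285 (SD, n = 4) in the other, a log2 change of -0.23 (SE 0.06, 95% interval -0.36 to -0.10), or 1.17-fold lower (limma adjusted p = 0.0236). Leaving out 1 array could end this call: adjusted p was 0.0589 and 0.0605 without shScr replicates 1 and 2, 0.0645 without hairpin 65 replicate 1, and 0.0651 and 0.0546 without hairpin 66 replicates 1 and 2. Against shGFP alone the log2 change was -0.16 (adjusted p = 0.121), and against shScr alone -0.29 (adjusted p = 0.0200). The call was lost without hairpin 65 (adjusted p = 0.0844), without hairpin 66 (0.163) and with the 2 arrays of each hairpin averaged (0.177). With the ACTB difference as a covariate the log2 change was -0.26 (adjusted p = 0.257). The second HLA-DRA probe set, 210982_s_at, had the same order of arms, at 6175 to 6748 in the control arrays and 5489 to 6091 in the PGC1a hairpin arrays, with a log2 change of -0.16 that did not pass (adjusted p = 0.0827).

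HLA-DMA encodes a chain of HLA-DM, the class II peptide exchanger. Its probe set 217478_s_at (Entrez 3108) gave 1737 and 1886 with shGFP, 1844 and 1891 with shScr, 1700.2 and 1774 with hairpin 65, and 1695 and 1659 with hairpin 66. Only the lowest control array and the highest hairpin 65 array crossed, and the log2 change of -0.11 (SE 0.05) did not pass (limma adjusted p = 0.206). CD74 encodes the invariant chain, and its probe set 209619_at (Entrez 972) gave 3577 and 3799 with shGFP, 3899 and 3921 with shScr, 3979 and 4135 with hairpin 65, and 3897 and 3802 with hairpin 66. Its arms overlapped, with a log2 change of 0.06 and a 95% interval of -0.06 to 0.18 (adjusted p = 0.545).

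CIITA, the coactivator that switches on class II genes, has 3 probe sets (Entrez 4261). 205101_at gave 118 and 131 with shGFP, 125 and 116 with shScr, 112 and 118 with hairpin 65, and 129.9 and 123 with hairpin 66, a log2 change of -0.02 with a 95% interval of -0.17 to 0.12. The others were dimmer: 210925_at ranged from 38.8 to 47.7 and 211884_s_at from 21.6 to 26.3 over the 8 arrays, with log2 changes of 0.01 and -0.08. No detection calls were used here, so whether the dim probe sets of CIITA, TAP2 and TAPBP carry signal above background is unknown.

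The next question was whether each hairpin against PGC1a gave the same calls. Both were set against the same 4 control arrays. With hairpin 65, limma called 2 of the 17 probe sets, 1 higher and 1 lower, where 18.2% of all probe sets were called, 10.1% higher and 8.11% lower. TAPBP 208829_at rose by a log2 change of 0.24 (SE 0.06, adjusted p = 0.0250) and TAP1 fell by 0.29 on the log2 scale (SE 0.07, adjusted p = 0.0219). Leaving out 1 array ended these calls in most cases. For TAP1 adjusted p was 0.0565 and 0.0582 without shGFP replicates 1 and 2, 0.0639 and 0.0519 without those of shScr, and 0.124 and 0.0561 without those of hairpin 65. For TAPBP it was 0.0688 without shGFP replicate 2, 0.0610 and 0.0755 without shScr replicates 1 and 2, and 0.0592 and 0.139 without those of hairpin 65. Without hairpin 65 replicate 1 the dim TAPBP probe set 210294_at passed (adjusted p = 0.0229). HLA-DRA 208894_at and 210982_s_at did not pass with hairpin 65 (limma adjusted p = 0.0515 and 0.206). With hairpin 66, 4 were called, 0 higher and 4 lower, where 17.2% of all were called, 8.71% higher and 8.46% lower. TAP1 fell by 0.40 (adjusted p = 0.00609), PSMB8 fell by 0.33 (adjusted p = 0.00670), and the HLA-DRA probe sets 208894_at and 210982_s_at fell by 0.25 and 0.21 (adjusted p = 0.0228 and 0.0321), all on the log2 scale. TAP1 passed in all 14 alternative analyses of hairpin 66. PSMB8 was lost without hairpin 66 replicate 1 (adjusted p = 0.0545), and both HLA-DRA calls were lost without any 1 of the control or hairpin 66 arrays. For 208894_at adjusted p was then 0.0507 and 0.0664 (shGFP replicates 1 and 2), 0.0503 and 0.0740 (shScr) and 0.120 and 0.0785 (hairpin 66), and for 210982_s_at 0.0832 and 0.0713, 0.0822 and 0.0947, and 0.151 and 0.0831 in the same order. These fits take the spread from within hairpins, so the difference between shGFP and shScr does not enter it. A 2-group fit without the other PGC1a hairpin kept TAP1 (limma adjusted p = 0.0341 with hairpin 65 and 0.0156 with hairpin 66). It lost TAPBP 208829_at with hairpin 65 (0.0733). With hairpin 66 it lost PSMB8 (0.0667) and HLA-DRA 208894_at and 210982_s_at (0.0844 and 0.113).

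The test of the difference itself gave no call: between hairpins 65 and 66, limma called 0 of the 17 probe sets and 0% of all probe sets. The 1 with an unadjusted p under 0.05, beside 6.83% of all probe sets, was PSMB8 209040_s_at, higher with hairpin 65 by a log2 difference of 0.22 (95% interval 0.07 to 0.37, limma adjusted p = 0.671). For TAPBP 208829_at the difference was 0.11 with an interval of -0.04 to 0.27, and for HLA-DRA 208894_at 0.05 with an interval of -0.11 to 0.21. The calls made with 1 hairpin and missed with the other are thus not shown to differ between them.

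**Figure D2:**
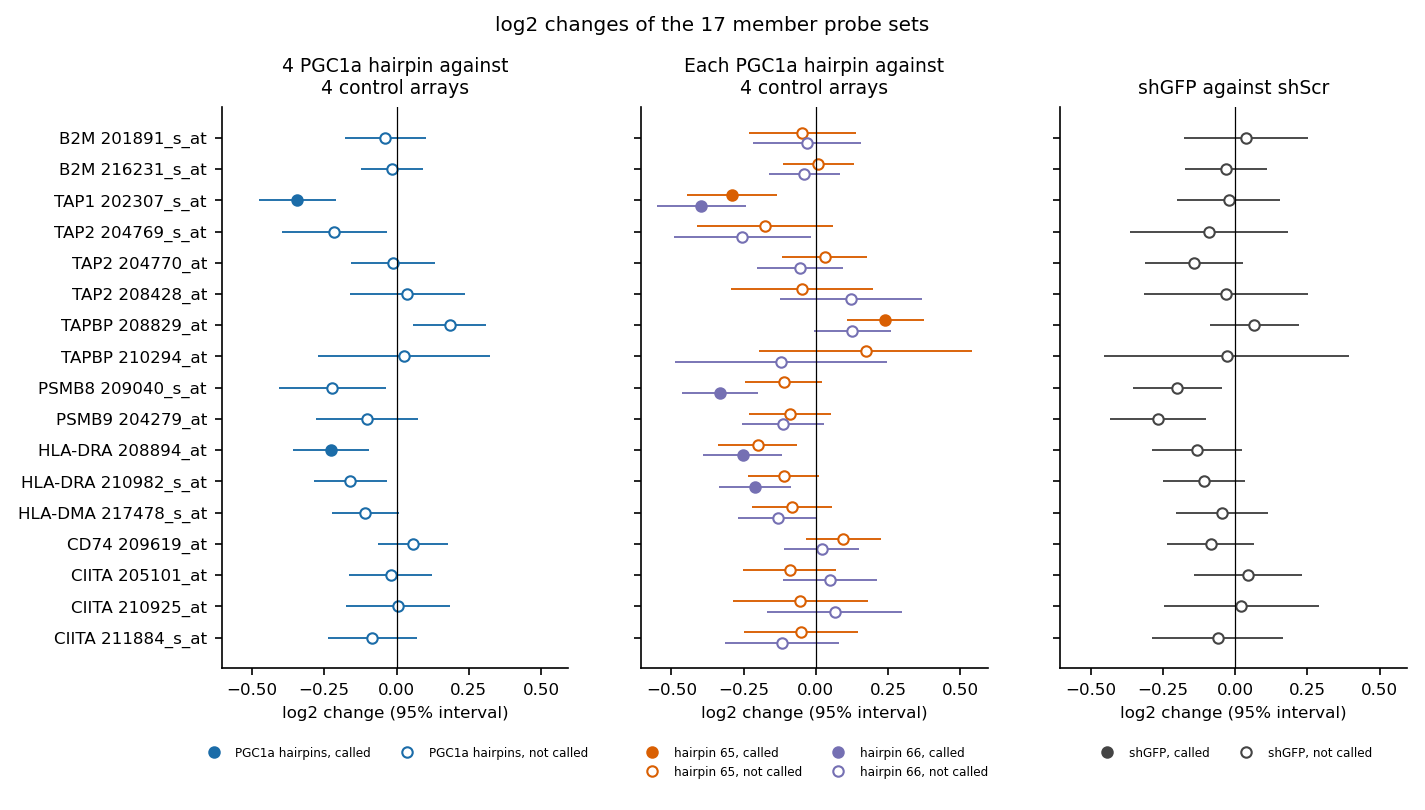
log2 change (horizontal, with its 95% interval from limma) of the 17 member probe sets (vertical) for all PGC1a hairpin arrays against all control arrays, for each PGC1a hairpin, and for shGFP against shScr; filled points were called. TAP1 is filled for both hairpins, TAPBP 208829_at for hairpin 65 and PSMB8 and both HLA-DRA probe sets for hairpin 66, and no point is filled between the controls.

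The control hairpins were compared to learn how far these genes vary without a hairpin against PGC1a. Between shGFP and shScr limma called 0 of the 17 probe sets, where 5.56% of all were called, 3.12% higher in shGFP and 2.44% lower. Both immunoproteasome subunits had an unadjusted p under 0.05, the only 2 of the 17, beside 19.8% of all probe sets. PSMB9 was lower in shGFP by a log2 difference of -0.27 (SE 0.07, 95% interval -0.43 to -0.10, adjusted p = 0.0806) and PSMB8 by -0.20 (SE 0.07, 95% interval -0.35 to -0.05, adjusted p = 0.145). For PSMB9 that gap is larger than its change with the PGC1a hairpins. Between the arrays of 1 hairpin the members had a median SD of 0.06 on the log2 scale (0.03 to 0.24 over the 17 probe sets), beside 0.09 over all probe sets. By the brightest probe set of each gene, the mean percentile of their signal was 80.7. The spreads were not matched for signal.

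The genes around the members on chromosome 6 give the setting of the class I machinery. In the RefSeq order of protein-coding genes, HLA-DOB, TAP2, PSMB8, TAP1, PSMB9, HLA-DMB and HLA-DMA follow each other. The brightest probe set of each had a negative log2 change: -0.42 for HLA-DOB, -0.22 for TAP2, -0.22 for PSMB8, -0.34 for TAP1, -0.10 for PSMB9, -0.13 for HLA-DMB and -0.11 for HLA-DMA. HLA-DOB, with a dim probe set (mean signal 69.1 in the control arm), and TAP1 passed the test, and the other 5 did not. This stretch was chosen after its values were seen. The 3 measured genes just before it had log2 changes of 0.02 (HLA-DQA1), 0.11 (HLA-DQB1) and 0.05 (HLA-DQB2), and the 2 just after it of 0.04 (BRD2) and 0.07 (HLA-DOA). Over the 27 measured genes of the 30 from HLA-DRA to TAPBP, 14 had a negative change and 13 a positive one, and 51.3% of all probe sets had a negative change. Beside HLA-DOB and TAP1, HLA-DRA and HLA-DPB1 passed with a negative change and RXRB with a positive one (log2 change 0.19, limma adjusted p = 0.0486). Over all probe sets, 18% were called, 8.46% lower and 9.49% higher.

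Other genes of both routes were read from lists of the pathway, described by counts against the 9.49% of all probe sets called higher and the 8.46% called lower. Among class I heavy chains, 5 of 6 genes were measured, and 2 of 17 probe sets fell, both of HLA-E, which presents leader peptides to natural killer cells. HLA-E was at 4415 ± 126 (SD, n = 4) in the control arm and 3501 ± 224 (SD, n = 4) in the other with 200905_x_at, a log2 change of -0.34 (limma adjusted p = 0.00359), and from 578 to 455 with 200904_at (adjusted p = 0.0172), which was lost without shGFP replicate 1 (0.05004). The remaining HLA-E probe set, 217456_x_at, had a log2 change of -0.16 that did not pass (adjusted p = 0.0751). HLA-B and HLA-C probe sets did not pass, with log2 changes between -0.01 and 0.07. Heavy chains are alike in sequence and nearly all of these are x_at probe sets, which can pick up more than 1 of them.

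Among other class II chains, 10 of 13 genes were measured and 2 of 24 probe sets fell. HLA-DOB, a chain of the HLA-DM inhibitor HLA-DO, was at 69.1 ± 6.08 (SD, n = 4) in the control arm and at 51.8 ± 6.62 (SD, n = 4) in the other (log2 change -0.42, limma adjusted p = 0.0164). This probe set is dim, brighter than only 36.3% of all probe sets, so whether it carries signal above background is unknown. HLA-DPB1, the beta chain of HLA-DP, went from 1399 to 1215 (log2 change -0.20, adjusted p = 0.0345). That call was lost without shGFP replicate 2 (0.0847), shScr replicate 1 (0.0689) or 2 (0.0832), hairpin 65 replicate 2 (0.0703), or hairpin 66 replicate 1 (0.0878) or 2 (0.0865). HLA-DRB1, the partner chain of HLA-DRA, had a log2 change of -0.06 (adjusted p = 0.528), and the 3 HLA-DPA1 probe sets lay between -0.04 and 0.09. Among loading and trimming genes, all 6 were measured and 3 of 15 probe sets fell, all 3 of CANX, the chaperone calnexin, which holds new heavy chains. Its brightest probe set, 200068_s_at, went from 7835 to 6471 (log2 change -0.28, adjusted p = 0.00376).

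In the list of proteasome subunits and activators, 6 of 7 genes were measured and 4 of 9 probe sets fell, with 0 higher. PSMB10, the third inducible catalytic subunit beside PSMB8 and PSMB9, was at 1136 ± 107 (SD, n = 4) in the control arm and at 871 ± 43.1 (SD, n = 4) in the other (log2 change -0.38, limma adjusted p = 0.00664). PSME1, a subunit of the interferon-induced activator PA28, went from 1871 to 1519.7 (log2 change -0.30, adjusted p = 0.00473). PSME3, a nuclear activator, fell with 200988_s_at (-0.52) and 209852_x_at (-0.37), while its brighter probe sets 200987_x_at and 209853_s_at had changes of 0.06 and 0.02. The standard catalytic subunits PSMB5, PSMB6 and PSMB7, which the inducible ones replace, had log2 changes of 0.06, 0.05 and -0.05, with adjusted p above the threshold.

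The larger changes lay in genes that handle class II peptides and in interferon gamma signalling. Of 8 peptide handling genes 7 were measured, and 4 of 11 probe sets rose and 2 fell. CTSL encodes cathepsin L, an endosomal protease that can degrade the invariant chain, and its signals were 2418, 2497, 2482 and 2661 in the control arrays and 972, 985, 953 and 1007 in the PGC1a hairpin arrays. The arms were far apart and tight, and the log2 change was -1.36 (SE 0.05), or 2.57-fold lower (limma adjusted p = 8.39e-07). LGMN, an endosomal asparagine endopeptidase, rose from 428 to 674 (log2 change 0.65, adjusted p = 1.42e-04), and CTSB rose with 3 of its 4 probe sets, by 0.34 to 0.44. CTSD fell by 0.31 (adjusted p = 0.0402), a call lost without shGFP replicate 1 (0.0973) or 2 (0.102), shScr replicate 2 (0.0776), hairpin 65 replicate 1 (0.101) or 2 (0.0749), or hairpin 66 replicate 1 (0.108). CTSS, the cathepsin most tied to invariant chain cleavage, did not pass, and its brighter probe set differed between the controls, with shGFP 0.99 above shScr on the log2 scale (adjusted p = 0.00127).

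In the list of transcriptional regulators and interferon gamma signalling, 15 of 17 genes were measured, and 3 of 34 probe sets rose and 4 fell. IFNGR2, a chain of the interferon gamma receptor, had signals of 2058, 2021, 2052 and 2083 in the control arrays and 3594, 3438, 3445 and 3787 in the PGC1a hairpin arrays, 1.74-fold higher (log2 change 0.80, limma adjusted p = 1.10e-05). The kinases bound to that receptor moved apart: JAK1 rose from 1603 to 2192 (log2 change 0.45, adjusted p = 9.58e-04) and JAK2 fell from 161 to 107 with 205842_s_at (log2 change -0.59, adjusted p = 5.86e-04), while the dimmer JAK2 probe set overlapped between the arms. NFYC, a subunit of the factor that binds CCAAT boxes of class II promoters, fell with 3 probe sets by 0.20 to 0.26. The call of 211797_s_at held without each array, while every array left out ended that of 202215_s_at, of 202216_x_at or of both, with adjusted p up to 0.123. CREB1, named after its value was seen because it is the remaining call of the list, rose with 204312_x_at alone, by a log2 change of 0.22 (adjusted p = 0.0269). Its brightest probe set, 204313_s_at, had a log2 change of 0.21. That did not pass in the limma test of 1 probe set per gene (adjusted p = 0.0814). RFX5, which anchors the complex that recruits CIITA, had log2 changes of -0.04 and -0.10 and did not pass. These lists held 24 called probe sets in all. With the ACTB difference as a covariate, those of CTSL, LGMN, IFNGR2 and JAK2 kept their calls and the other 20 lost theirs, with adjusted p from 0.0599 (PSME3) to 0.697 (CTSD). All 20 kept their sign, and their log2 changes were 0.50 to 1.23 times those without the covariate (median 0.98), while their standard errors were 1.63 to 1.82 times as large. The log2 change of CTSD went from -0.31 to -0.15 and that of PSMB10 from -0.38 to -0.28, while HLA-E 200905_x_at was at -0.34 in both fits and CANX 200068_s_at at -0.28 and -0.30.

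The calls of these lists also depended on the hairpins. With the 2 arrays of each hairpin averaged, 16 of the 24 were lost, with adjusted p from 0.0534 to 0.219: both of HLA-E, all 3 of CANX and of NFYC, 1 each of PSME3 (209852_x_at) and CTSB (200839_s_at), and those of HLA-DOB, HLA-DPB1, PSMB10, PSME1, CTSD and CREB1. Without hairpin 66, 13 were lost (0.0533 to 0.255): HLA-E 200904_at, all of CANX and NFYC, and those of HLA-DOB, HLA-DPB1, PSMB10, PSME1, CTSD and CREB1. Without hairpin 65, 5 were lost (0.0617 to 0.271), 1 each of CANX (208852_s_at) and NFYC (202215_s_at) and those of HLA-DPB1, CTSD and CREB1. Without shGFP, 6 were lost (0.0590 to 0.270), HLA-E 200904_at, 2 of NFYC and those of HLA-DPB1, CTSD and CREB1. Without shScr, 4 were lost (0.0615 to 0.130), those of HLA-DOB, HLA-DPB1 and CREB1 and NFYC 202216_x_at. No sign changed in these fits, and the calls of CTSL, LGMN, IFNGR2, JAK1 and JAK2 held in each.

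**Figure D3:**
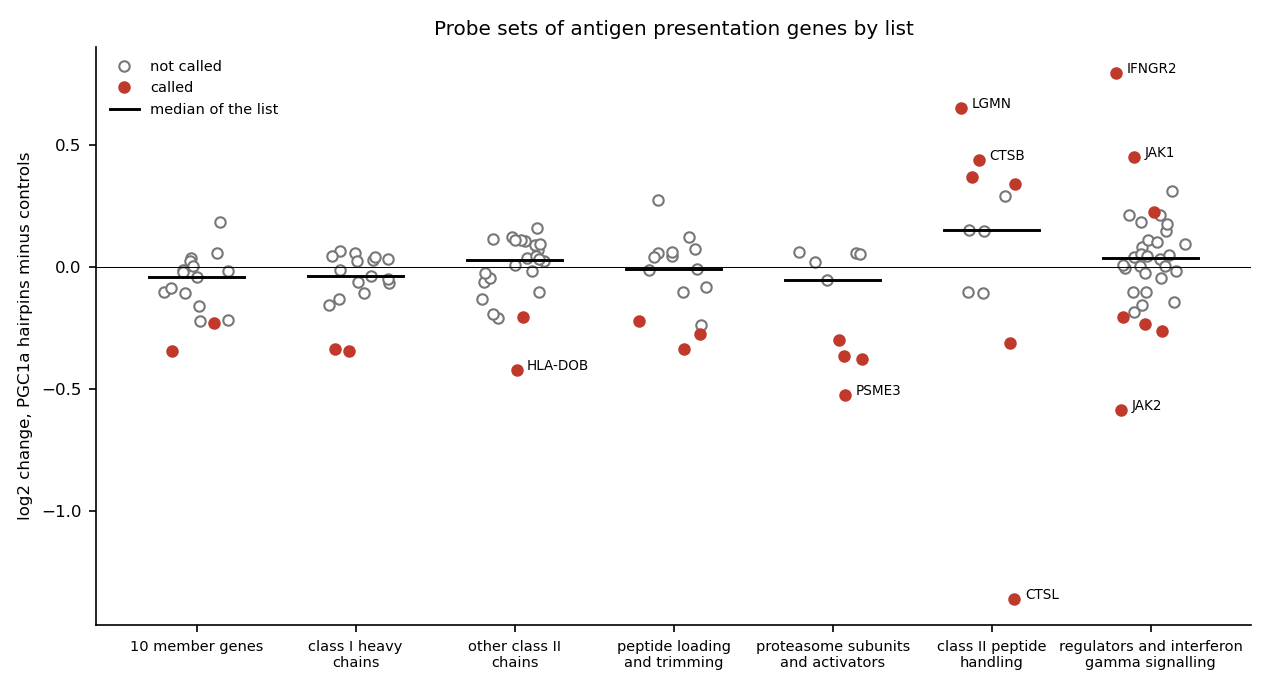
log2 change of PGC1a hairpin arrays against control arrays (vertical) of every probe set of the 10 members and of 6 pathway lists (horizontal), with called probe sets filled, the median of each list as a bar, and called probe sets past 0.4 in either direction named by gene. The members lie between -0.34 and 0.18, while CTSL is at -1.36 and IFNGR2 at 0.80.

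The genes most like the called members over the 8 arrays were sought among 9938 probe sets of above-median signal, as a description in which all points share the same 8 arrays and the same arms. For TAP1 they were DDX1, an RNA helicase, with a Pearson r of 0.997, CSTB, a cysteine protease inhibitor, with 0.993, and TOMM40, the channel of the outer mitochondrial membrane, with 0.992. For HLA-DRA 208894_at they were the kinase gene MARK2 with 0.994, LRRC47 with 0.987 and the ceramide transfer gene CERT1 with 0.985. None of the 10 members is among these genes. Only the genes with the highest r are listed for each called member, so whether the members vary together was not tested.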

How the data were processed

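Total RNA was copied from an oligo-dT primer and labelled as biotin-cRNA, per the labels' protocols. The authors deposited intensity values on a linear scale. Per the submitters' processing notes they came from RMA, which normalizes all arrays together; its version is not given in the sources used here. Of 22277 probe sets, 62 array controls were left out. Probe sets were named by the array's annotation, in which 19070 had 1 symbol. The log2 was taken, and limma 3.58.1 (R 4.3.3) tested every probe set singly with Benjamini-Hochberg adjustment and a threshold of 0.05. The main comparison was a 2-group fit (6 residual degrees of freedom); single hairpins and controls came from a 4-group fit (4 degrees). Intervals are at 95%. Fits were run on simulated data with no difference between hairpins of an arm. Those data cannot show how the fits fare where such hairpins differ. Precision is limited by how few arrays there are.

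The members, the lists and the naming rule were chosen with earlier results of these data known. The rule names all members, PPARGC1A, up to 4 called genes of each list by smallest adjusted p, and the 3 genes most like each called member. Alternatives changed the normalization, signal filter, variance model, probe set choice, arrays or hairpins used, and added a replicate block, a hairpin block or the ACTB difference.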

Additional observations from a re-analysis of the deposited data

Results flagged for a closer look

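Of 34 sets of 4 arrays (17 member probe sets in each arm), 3 held an array that stood apart from the others by Dixon's criterion, and chance gives about 1 in 20. For B2M 216231_s_at the shGFP replicate 2 array was the lowest of the control arm, at 17662, with a ratio of 0.897. For CIITA 210925_at the hairpin 65 replicate 2 array was the lowest of the PGC1a hairpin arm, at 38.8, with a ratio of 0.922. For CIITA 211884_s_at the shScr replicate 1 array was the highest of the control arm, at 26.3, with a ratio of 0.872. These probe sets were not called in the comparisons of the report.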

How the results depend on the processing

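Of the 17 member probe sets, 2 were called between the arms. The count was 4 without the 40% dimmest probe sets, 5 with a trend and robust variance, 5 with the 4-group fit, 1 with s_at and x_at probe sets left out (which takes TAP1 out), 1 without shScr, 1 without hairpin 65, 1 without hairpin 66, 0 when both arrays of a hairpin were averaged and 0 with the ACTB difference as a covariate; it ran from 1 to 2 with 1 array left out. For hairpin 65 the count of 2 became 4 with a trend and robust variance and 1 without s_at or x_at, and ran from 0 to 2 with 1 array left out. For hairpin 66 the count of 4 became 1 without s_at or x_at and ran from 1 to 4 with 1 array left out. Between shGFP and shScr the count of 0 became 1 without the dimmest probe sets (PSMB9) and 2 with a trend and robust variance (PSMB8 and PSMB9). Between hairpins 65 and 66 it was 0 in every alternative run. Apart from the filters, which test fewer probe sets, and the fits with fewer arrays, the cause was not tested. TAP1 kept its call in 20 of 22 alternatives, and HLA-DRA 208894_at in 13 of 23. No call changed direction.

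Over all probe sets the calls numbered 3989, and 678 with the ACTB covariate, 1337 with averaged arrays, 1888 without s_at or x_at, 1982 without hairpin 65 and 1964 without hairpin 66. Without the 40% dimmest probe sets, 4524 of 13329 were called, beside 4 of 14 member probe sets. The calls over all probe sets numbered 4544 with a trend and robust variance, 5210 with the 4-group fit and 4566 without shScr. The member count and the count over all probe sets were both higher without the 40% dimmest probe sets, with a trend and robust variance, and with the 4-group fit. The counts did not always move together. With shGFP left out, 3 member probe sets were called (HLA-DRA, PSMB9 and TAP1), but only 3084 of all. With shScr left out, 1 member probe set was called, though the count over all probe sets was higher. With the replicate block 2 member probe sets were called, as without it; the block ended the calls of HLA-DPB1 (adjusted p = 0.0533) and of 2 NFYC probe sets (0.0592 and 0.0503). Deviations of arrays with the same replicate number correlated between -0.22 and 0.16 over the 6 pairs of hairpins. Values this weak and of mixed sign do not settle whether the numbers pair the arrays. Low signals without detection calls and 2 arrays per hairpin limit what can be seen.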
